A study of Homo sapiens with 40 samples.

Results

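The genes described here are 8 of the dual-specificity phosphatases that switch off MAP kinases (MKPs): DUSP1, DUSP2, DUSP4, DUSP5, DUSP6, DUSP7, DUSP8 and DUSP10. Open chromatin was measured around them by ATAC-seq, in which a transposase cuts accessible DNA and the cut sites collect into peaks. The peaks of all 40 libraries were merged where they overlapped by at least 1 bp, and a merged region was kept if at least 2 lists held it. A region belonged to a gene when its midpoint lay in the gene body or within 50 kb of either end, as annotated by GENCODE release 44 on GRCh38. In this way 70 of 71600 regions were assigned to the 8 genes, and 19 of the 70 were open in all 40 lists.

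The libraries came from BT474, a HER2-amplified line of human breast ductal carcinoma, and from BT474R, the trastuzumab-resistant cells set beside it. Cells of all groups were serum starved. They were then collected at 0 h (baseline) or after 1, 12 or 24 h with epidermal growth factor (EGF), heregulin (HRG) or water as control. Each of the 10 conditions per line had 2 libraries, so that a ligand was compared with its control as 6 libraries against 6 over the 3 times, and the lines as 20 against 20. Per the study's methods each treatment was run in duplicate in wells. Nothing says that the duplicates came from separate passages or days. The p-values for peak strength therefore measure the spread between such duplicates, which may be technical. Those for peak presence count every library as independent, with the times pooled and, between the lines, the treatments as well. Each line is 1 model, and a difference between the lines is one between these cultures.

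MKPs remove phosphate from both the threonine and the tyrosine of the MAP kinase activation loop. Many are themselves induced by the pathway they restrain, which makes them a negative feedback on ERK, JNK or p38. EGF binds the EGF receptor and HRG binds HER3 and HER4, and each of these receptors can pair with HER2 upstream of RAS and ERK.

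The lists gave no read counts, so sequencing depth is unknown, and an absent peak means only that none was called. They held 47571 to 56846 peaks in BT474 (median 51357) and 32479 to 56494 in BT474R (median 46641). The shortest was BT474R control 12 h replicate 1. Promoters of all 8 epithelial markers examined, among them ERBB2, KRT8 and EPCAM, were open in all 40 lists. Of 8 promoters of other cell types, 2 (VWF and COL1A1) were open in all 40 and 3 (PTPRC, CD3E and PECAM1) in none.

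Peak strength is given as a rank percentile of the signal value that the peak caller wrote for each peak, where 100 is the strongest peak. Within a list the rank was taken among all regions of that list (the list percentile). For tests it was taken among the 25166 regions open in all 40 lists (the common percentile). Both are relative, and a region can move because others moved. A region is named by the distance of its midpoint from the gene's start, with negative distances upstream, as in "DUSP6 -18.34 kb".

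The 8 genes differed in how many regions surrounded them. DUSP4 had 19 regions, DUSP6 had 11, DUSP1 and DUSP8 had 8 each, DUSP5 and DUSP10 had 7 each, and DUSP2 and DUSP7 had 5 each. Of the 70 regions, 20% lay at a promoter of their own member gene (within 1 kb of an annotated start). Of all regions, 25.5% lay at a promoter of any protein-coding gene. The shares are not like for like, since the first leaves out the ADRA2B and ASTL promoters near DUSP2. The share open in all 40 lists was 27.1%, against 35.1% of all. The share found only in BT474R lists was 28.6%, against 14% of all regions, while 0 of the 70 were found only in BT474, where 13.9% of all regions were.

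**Figure D1:**
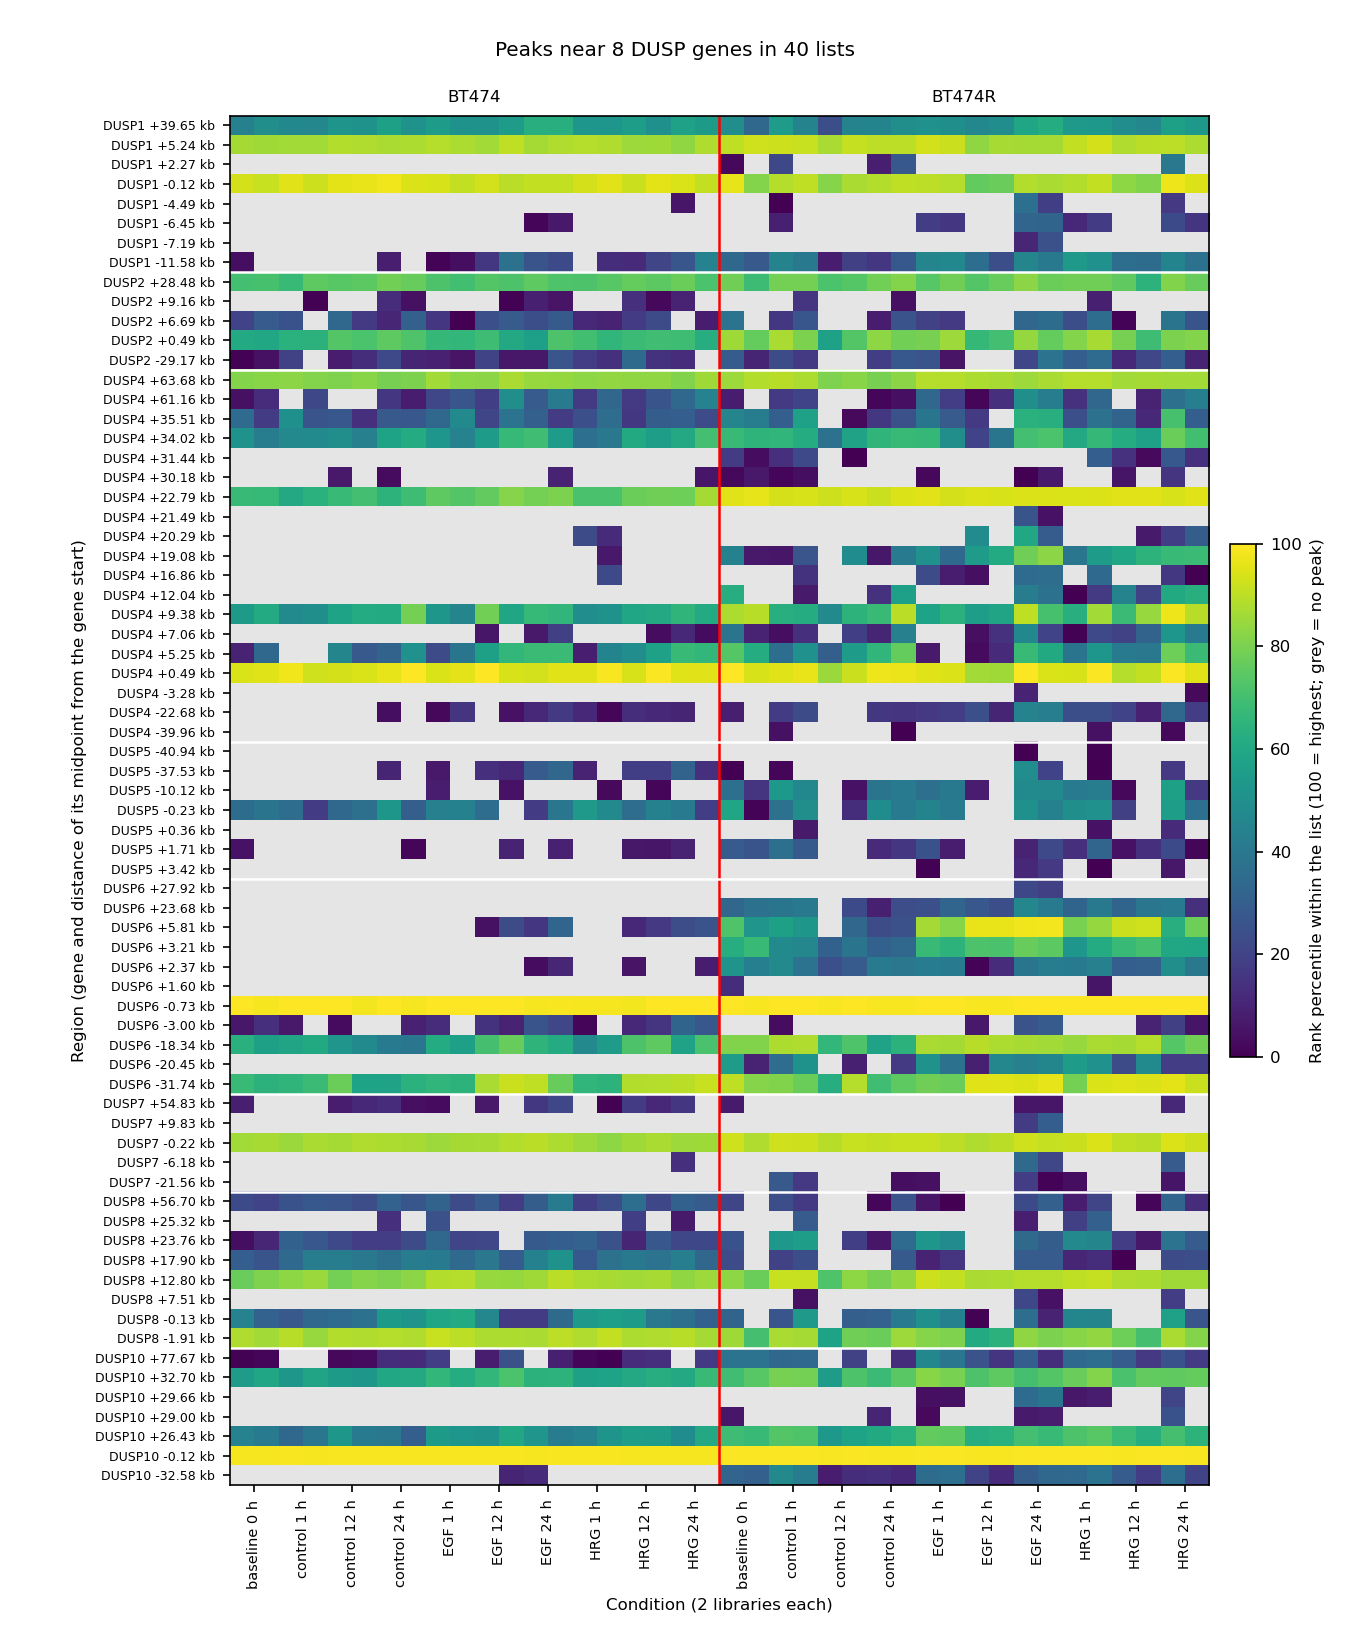
List percentile of each of the 70 MKP gene regions (rows, grouped by gene and ordered by distance from the start) in each of the 40 libraries (columns, by line, arm and time). Grey marks a library with no peak in the region. The DUSP6 rows hold several regions that are grey across BT474 and filled across BT474R.

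The number of the 70 regions open per library varied within each arm. In BT474 it was 31 to 34 at baseline, 27 to 37 in control (median 31), 31 to 42 with EGF (median 37) and 34 to 40 with HRG (median 38.5). In BT474R it was 37 to 50 at baseline, 24 to 51 in control (median 44.5), 32 to 64 with EGF (median 45.5) and 41 to 61 with HRG (median 48). The arms overlapped within each line.

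DUSP6 is a cytoplasmic phosphatase that acts mainly on ERK. The gene lies on the minus strand of chromosome 12 (12:89347235-89352501). Its promoter region, at -0.73 kb (12:89351394-89355064), was among the strongest peaks of every library, with a common percentile of 96.5 to 99.7 in BT474 and 98.3 to 99.8 in BT474R. Near the top of the scale a further gain could hardly be seen, and the region was called in no ligand comparison. The 250 bases before the DUSP6 start in RefSeq (GRCh38.p14, minus strand, 12:89352502-89352751) are shown because the strongest peak of the set covers them. They held none of the 6 motifs searched, and no letter is in capitals.
DUSP6 promoter: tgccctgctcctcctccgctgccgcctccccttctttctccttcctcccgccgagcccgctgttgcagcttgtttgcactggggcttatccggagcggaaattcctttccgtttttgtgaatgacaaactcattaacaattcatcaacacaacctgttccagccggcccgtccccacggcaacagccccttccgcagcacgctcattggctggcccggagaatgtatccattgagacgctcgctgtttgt

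Among the DUSP6 regions open in every list, those that rose with a ligand lay upstream of the gene. The DUSP6 -31.74 kb region (12:89383202-89385286) and the DUSP6 -18.34 kb region (12:89370259-89371432) are intergenic and were open in all 40 lists. The 201 bases around their summits, from the plus strand of GRCh38, are shown because these regions rose with both ligands in both lines. Capitals would mark an AP-1 match, and neither window held one. The windows span 12:89384053-89384253 and 12:89370569-89370769.
DUSP6 -31.74 kb: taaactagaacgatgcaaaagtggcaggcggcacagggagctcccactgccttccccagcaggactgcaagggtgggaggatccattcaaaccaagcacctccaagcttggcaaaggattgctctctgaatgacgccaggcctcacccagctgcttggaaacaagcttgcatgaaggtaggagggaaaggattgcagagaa
DUSP6 -18.34 kb: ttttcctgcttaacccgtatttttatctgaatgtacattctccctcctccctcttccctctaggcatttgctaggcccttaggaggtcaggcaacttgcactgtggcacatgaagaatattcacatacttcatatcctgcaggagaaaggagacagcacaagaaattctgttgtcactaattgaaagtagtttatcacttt

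At DUSP6 -31.74 kb in BT474, the common percentile was 41.6 and 38.5 in the baseline libraries. Control libraries gave 39.2 and 42.9 at 1 h, 58.3 and 28.0 at 12 h, and 24.8 and 35.1 at 24 h. With EGF they gave 36.2 and 38.6 at 1 h, 74.1 and 82.3 at 12 h, and 79.9 and 51.1 at 24 h. The 1 h libraries of all arms lay close together, and the ligand libraries at 12 h lay above both controls. With HRG the values were 41.4 and 37.7 at 1 h, 76.2 and 76.8 at 12 h, and 79.2 and 83.3 at 24 h.

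Over the 3 times the region rose by 22.32 percentile points with EGF (SE 5.36, limma adjusted p = 0.00606) and by 27.71 with HRG (adjusted p = 0.000659) in BT474. In BT474R it was at 80.2 and 69.0 at baseline and at 51.5 to 82.6 in control (median 55.5). EGF libraries of BT474R gave 57.2 and 58.8 at 1 h, 93.5 and 93.1 at 12 h, and 89.5 and 92.6 at 24 h. HRG libraries gave 58.0 and 87.5 at 1 h, 91.2 and 91.5 at 12 h, and 91.3 and 86.5 at 24 h. At 12 and 24 h all 8 ligand libraries of BT474R therefore lay above every control library of that line. The rise was 21.25 with EGF (adjusted p = 0.00516) and 24.81 with HRG (adjusted p = 0.00553), and all 4 calls held without any single library and with the caller's p-value column in place of its signal column.

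At DUSP6 -18.34 kb the control libraries of BT474 gave 29.4 and 32.2 at 1 h, 21.2 and 16.2 at 12 h and 8.4 and 8.61 at 24 h, so that the later controls stood lower. Baseline gave 34.9 and 28.6. EGF libraries gave 29.8 and 27.5 at 1 h, 43.6 and 51.2 at 12 h, and 32.2 and 25.1 at 24 h. HRG libraries gave 19.3 and 25.3, 44.8 and 50.7, and 24.2 and 44.4 at the same times. The ligand libraries thus stood above baseline at 12 h, whereas at 24 h the EGF libraries were near baseline and above the lower controls. The region rose by 15.57 with EGF (SE 3.02, limma adjusted p = 0.000877) and by 15.44 with HRG (adjusted p = 0.000748). Ranked by the caller's p-value column instead of its signal column, the differences were 5.77 (adjusted p = 0.263) and 7.82 (adjusted p = 0.135), and among peaks of score 400 or more the EGF difference was 9.27 (adjusted p = 0.057).

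In BT474R the same region stood higher. Baseline gave 60.9 and 68.0, and control gave 73.6 and 75.1 at 1 h, 58.7 and 57.9 at 12 h, and 35.1 and 39.1 at 24 h. EGF libraries gave 74.6 and 75.2, 84.0 and 82.1, and 73.9 and 72.6, and HRG libraries 69.3 and 72, 76.0 and 81.9, and 45.4 and 64.1. The EGF and control libraries overlapped at 1 h and the HRG libraries lay below the controls, while at 12 and 24 h every ligand library lay above both controls of its time. The rise was 20.5 with EGF (limma adjusted p = 1.91e-05) and 11.57 with HRG (adjusted p = 0.0208). The HRG call was lost without HRG 1 h replicate 2, HRG 12 h replicate 2, HRG 24 h replicate 2 or control 24 h replicate 1, with differences of 8.46 to 11.12 and limma adjusted p from 0.0593 to 0.0735. By the p-value column it was 8.54 (adjusted p = 0.193), and the EGF call was kept.

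**Figure D2:**
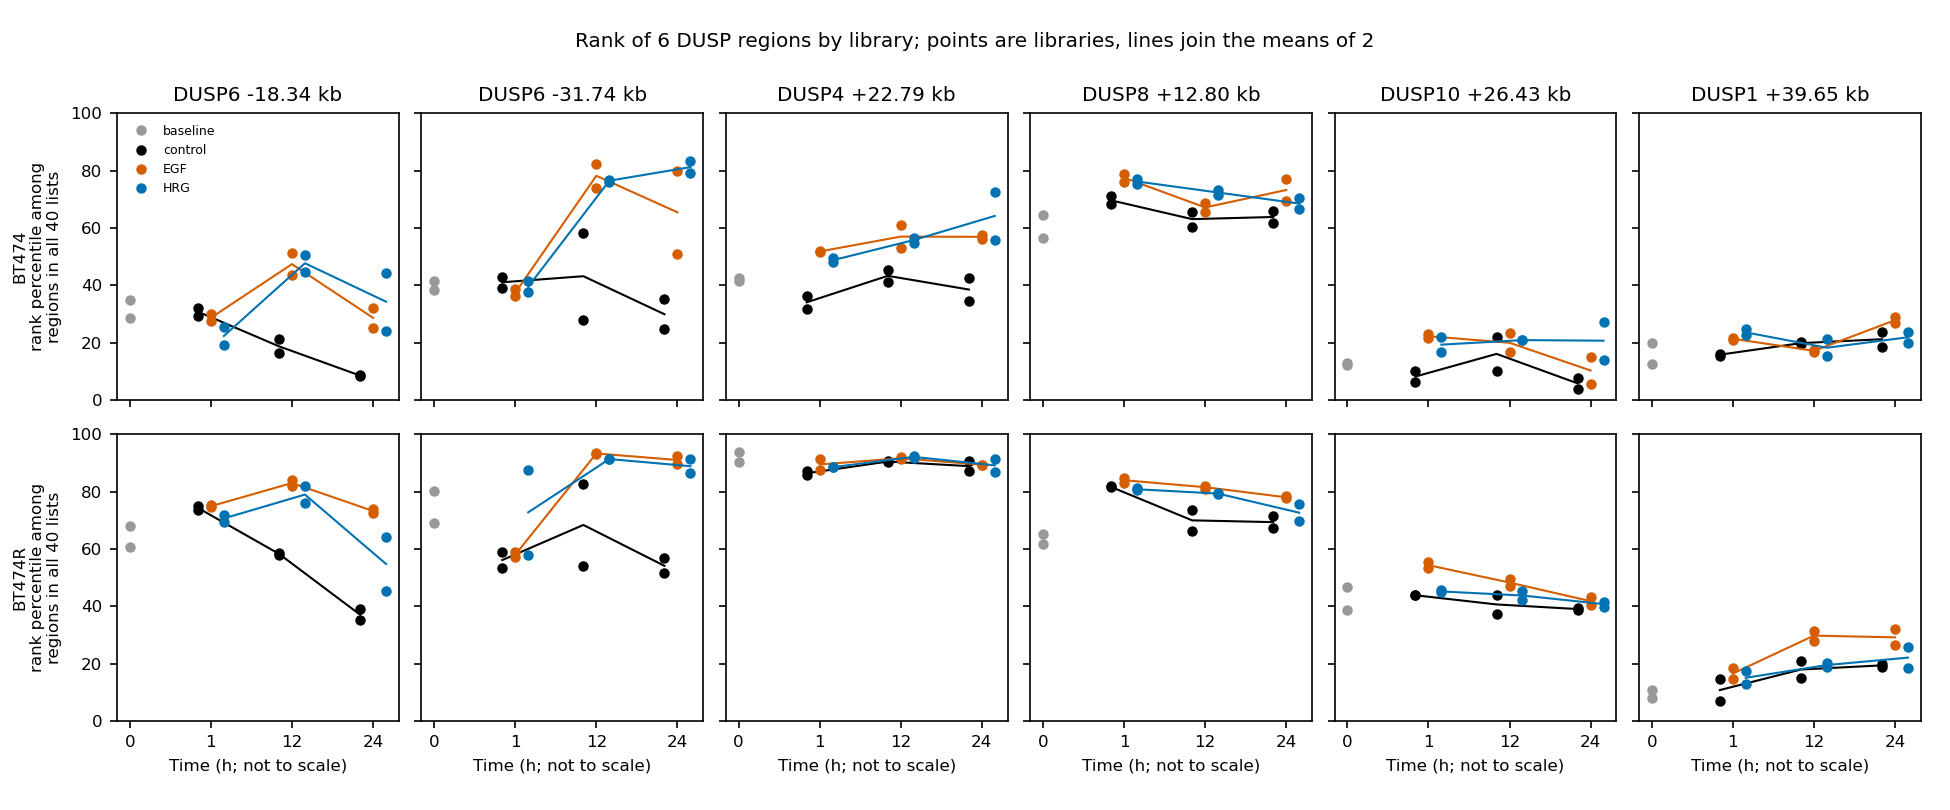
Common percentile (y axis, 0 to 100) against time in hours (x axis, not to scale) for 6 named regions, by library and arm, with BT474 and BT474R apart. Both DUSP6 upstream regions separate ligand from control libraries at 12 and 24 h in both lines, and DUSP4 +22.79 kb does so in BT474, where it starts lower.

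The largest ligand differences at DUSP6 were at the 3′ end of the gene in BT474R. The region at 5.81 kb (12:89345480-89347900), which spans the gene's end with its summit just beyond it, had list percentiles in BT474R of 72.5 and 52.1 at baseline. Control gave 57.0 and 53.1 at 1 h, no peak and 33.2 at 12 h, and 22.8 and 24.9 at 24 h. With EGF it reached 86.6 and 81.7 at 1 h, 96.6 and 96.6 at 12 h, and 97.9 and 98.3 at 24 h. Every EGF library thus lay above every control library. HRG libraries gave 79.7 and 84.3, 91.8 and 92.8, and 63.3 and 77.8. In BT474 the region had no peak at baseline, in control or at 1 h, and a weak peak in all 4 EGF and all 4 HRG libraries at 12 and 24 h, at 4.68 to 32.5.

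This region was not open in every list. It was therefore tested in a second fit, over the 46799 regions open in at least 20 lists, with an absent peak set to percentile 0. There it rose in BT474R by 57.91 points with EGF (SE 4.76, limma adjusted p = 3.35e-09) and by 45.25 with HRG (adjusted p = 9.29e-07), and the EGF and HRG effects were larger than in BT474 by 48.57 (adjusted p = 7.13e-05) and 34.42 (adjusted p = 0.00251). In BT474 the differences were 9.34 with EGF (adjusted p = 0.202) and 10.83 with HRG (adjusted p = 0.113). The BT474 controls entered at 0, the lower bound, whatever signal lay below the caller's threshold. Groups without a peak add no spread to the estimate that the lines share, so that the SE and p can understate the spread in BT474R. The BT474R control without a peak was the shortest list, and the effect of list length was not tested. In presence alone the BT474 counts were 4 of 6 ligand libraries against 0 of 6 controls for each ligand (two-sided Fisher's exact test, p = 0.0606). With 4 open libraries in all, no arrangement reaches p below 0.05, so that this test could not call the region.

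The neighbouring region at 3.21 kb (12:89348855-89349736), with its summit in an annotated UTR of DUSP6, was open in all 20 BT474R lists and in 0 of the 20 BT474 lists. Its list percentile was 62.5 and 67.4 at baseline, and in control 47.4 and 46.1 at 1 h, 31.1 and 38.5 at 12 h, and 31.2 and 34.0 at 24 h. EGF libraries gave 67.3 and 64.7, 72 and 71.3, and 76.6 and 74.9, and HRG libraries 52.6 and 61.5, 67.3 and 70.6, and 59.8 and 59.2. All 12 ligand libraries lay above all 6 controls. In the fit over regions in at least 20 lists it rose by 27.98 with EGF (SE 1.78, limma adjusted p = 6.17e-11) and by 16.28 with HRG (adjusted p = 1.58e-06). It entered that fit through its BT474R lists alone. All BT474 libraries stood at 0 without spread, and the lines share 1 estimate of the spread. The SE and p can therefore understate the spread in BT474R, here and in the other tests of this region.

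From baseline to control the BT474R percentile there fell by 19.88 points (limma adjusted p = 0.000109), and EGF was 11.7 above HRG (adjusted p = 0.000197). At the 5.81 kb region it fell by 27.65, with a limma adjusted p of 0.023. That call was lost without baseline replicate 1 or replicate 2. The ligand calls at both regions held without any single library.

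Other regions around DUSP6 differed in presence between the lines. The region at 23.68 kb (12:89328458-89329175) was open in 19 BT474R and 0 BT474 lists, and the region at -20.45 kb (12:89372447-89373461) in 18 and 0. The intronic region at 2.37 kb (12:89349834-89350432), at an internal annotated start, was open in 20 BT474R and 4 BT474 lists. Its 4 BT474 peaks were weak (list percentile 3.13 to 10.7) and all came from ligand libraries at 12 or 24 h. The region at -3.0 kb went the other way, with 7 BT474R and 15 BT474 lists.

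**Figure D3:**
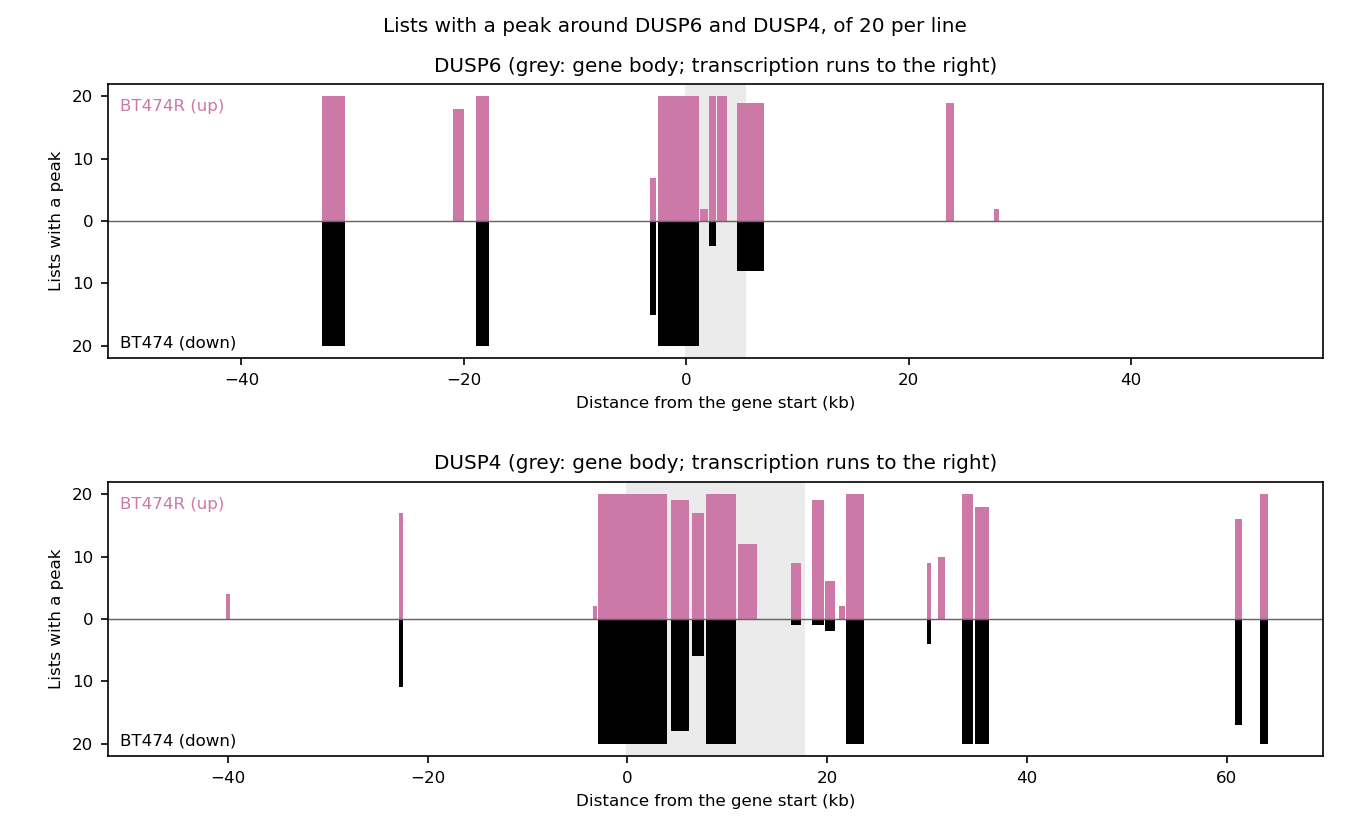
Number of the 20 lists per line (y axis) that held each region against its midpoint distance in kb from the gene start (x axis) for DUSP6 and DUSP4. Around DUSP6 several regions stand at 18 to 20 lists in BT474R and at 0 to 4 in BT474.

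DUSP7, the other ERK-selective cytoplasmic phosphatase of the set, had 5 regions and 1 in all 40 lists, its promoter at -0.22 kb (3:52055691-52057887). The promoter's common percentile was 72 to 77.1 in BT474 control libraries (median 74.8), 70.7 to 78.3 with EGF (median 74.1) and 67.8 to 74.0 with HRG (median 70.9). The arms overlapped. It fell by 3.56 with HRG in BT474 (limma adjusted p = 0.0472), a call that was lost in 8 of 12 fits without a library, with adjusted p from 0.0667 to 0.18. In BT474R it stood 10.89 points higher than in BT474 (adjusted p = 2.29e-13).

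DUSP5 is a nuclear phosphatase that acts on ERK. It was the only gene of the 8 with no region open in all 40 lists. Its promoter region at -0.23 kb (10:110497343-110498004) was open in 19 BT474 and 16 BT474R lists, at a median list percentile of 37.0 and 44.54. The 142 bases up to the gene start (plus strand of GRCh38, 10:110497765-110497906) are shown because they held the only CArG box matches of the 70 regions. A CArG box is the letter pattern bound by serum response factor, and capitals mark 2 adjoining matches.
DUSP5 -0.23 kb: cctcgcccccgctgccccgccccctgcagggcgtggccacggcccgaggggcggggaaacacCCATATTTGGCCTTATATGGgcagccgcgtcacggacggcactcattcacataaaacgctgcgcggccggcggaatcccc

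In BT474 the DUSP5 promoter peak was at list percentile 35.4 and 38.4 at baseline, and in control at 35.6 and 17.5, 33.5 and 37.0, and 52.8 and 30.3 at 1, 12 and 24 h. EGF libraries gave 43.4 and 43.8 at 1 h, 35.8 and no peak at 12 h, and 17.4 and 39.1 at 24 h. HRG libraries gave 53.6 and 47.8, 35.6 and 43.8, and 41.3 and 18.5. The arms overlapped. In the fit over regions in at least 20 lists the difference from control was -7.44 with EGF (SE 6.61, limma adjusted p = 0.502) and 3.5 with HRG (adjusted p = 0.775) in BT474, and -4.93 and 0.52 in BT474R (adjusted p = 0.679 and 1.0).

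BT474R had no DUSP5 promoter peak in 4 libraries, all from 12 h, the time that also had the shortest lists of that line. These were control replicate 1, HRG replicate 2 and both EGF replicates. The effect of list length on them was not tested. A second DUSP5 region at -10.12 kb was open in 17 BT474R and 4 BT474 lists, and was at a list percentile of 7.75 or less in each of those 4.

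DUSP1 is a nuclear phosphatase of immediate early genes and acts on p38, JNK and ERK. Its gene lies on the minus strand (5:172768096-172771195). The promoter region at -0.12 kb (5:172769940-172772682) had a common percentile in BT474 of 85.6 to 95.3 in control (median 91.9), 77.0 to 87.9 with EGF (median 81.5) and 81.3 to 91.5 with HRG (median 88.0). The EGF libraries stood low, with some overlap. The rank takes only the strongest peak of a region, so a region that the caller split can rank lower. Every EGF library held this region as 2 or 3 peaks. In control it was a single peak at 12 h in replicate 2 (93.4) and at 24 h in replicate 1 (95.3). The other controls held 2 or 3 peaks, at 85.6 to 92.35. The DUSP1 promoter region fell by 8.96 with EGF in BT474 (SE 2.6, limma adjusted p = 0.0229). The call was lost in 6 of 12 fits without a library, where the difference was -8.91 to -7.46 and the adjusted p 0.0505 to 0.102, and also by list percentile (-3.99, adjusted p = 0.109).

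In BT474R the DUSP1 promoter gave 76.1 to 82.7 in control (median 79.9), 65.1 to 79.9 with EGF (median 76.1) and 69.2 to 94.7 with HRG (median 78.0). The highest HRG values, 94.7 and 91.1 at 24 h, came from libraries with a single peak there. No ligand comparison of that line called the DUSP1 promoter. The 250 bases before the DUSP1 start in RefSeq (GRCh38.p14, minus strand, 5:172771196-172771445) are shown for the cAMP response element (CRE) in capitals, which begins 125 bases before the start. The same element was found in 1.85% of 35116 RefSeq promoters, and among the members also in DUSP8.
DUSP1 promoter: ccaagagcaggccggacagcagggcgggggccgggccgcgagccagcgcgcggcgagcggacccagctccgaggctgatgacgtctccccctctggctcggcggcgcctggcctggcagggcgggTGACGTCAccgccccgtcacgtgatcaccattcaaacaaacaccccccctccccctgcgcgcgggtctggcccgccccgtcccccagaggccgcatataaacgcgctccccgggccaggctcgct

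Farther from DUSP1, regions at 39.65 kb and -11.58 kb were called with a ligand. The summit window of the first (plus strand of GRCh38, 5:172731457-172731657) is shown because it held an AP-1 match, in capitals, the element bound by FOS and JUN. The copies of each summit window in the genome were counted after the values had been seen. Of 10 consecutive pieces of 20 bases in the DUSP1 +39.65 kb window, 0 occurred elsewhere in the genome, and of 10 in the DUSP1 -11.58 kb window 6 did, 1 of them 344 times in all. The part of these copies in the presence of the -11.58 kb peak was not tested.
DUSP1 +39.65 kb: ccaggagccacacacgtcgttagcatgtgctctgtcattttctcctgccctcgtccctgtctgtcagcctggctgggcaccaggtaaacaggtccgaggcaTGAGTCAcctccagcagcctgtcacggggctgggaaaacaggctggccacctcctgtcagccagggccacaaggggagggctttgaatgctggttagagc

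The DUSP1 +39.65 kb region (5:172731341-172731751), past the 3′ end, was a low-ranked peak in every library. In BT474R its common percentile was 10.7 and 7.92 at baseline, and in control 14.7 and 6.78, 15.0 and 20.9, and 19.8 and 18.9 at 1, 12 and 24 h. EGF libraries gave 14.6 and 18.5, 28.0 and 31.5, and 26.4 and 31.9. The 4 EGF libraries of 12 and 24 h lay above all 6 controls. The region rose by 9.12 with EGF (SE 1.81, limma adjusted p = 0.000592), and the mean with EGF was 6.28 above that with HRG (adjusted p = 0.0407), a call lost in 7 of 12 fits without a library and by list percentile (0.76, adjusted p = 0.886). In BT474 the EGF difference was 3.17 and was not called.

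The DUSP1 -11.58 kb region was the only member region whose presence was called with a ligand. In BT474 it was open in all 6 EGF lists and in 1 of 6 control lists (two-sided Fisher's exact test, p = 0.0152, 0.0796 after adjustment over the regions tested). With HRG it was open in 5 of 6 (Fisher's exact test, p = 0.0801). The BT474 peaks were weak. Their list percentile was 3.55 in 1 baseline library, 8.4 in the 1 control library, and with EGF 0.85 and 3.59 at 1 h, 16.4 and 37.2 at 12 h, and 26.1 and 22.6 at 24 h. With HRG they were at 12.9 in 1 library at 1 h, 11.8 and 20.9 at 12 h, and 26.9 and 44.2 at 24 h. No EGF gain remained among peaks of score 400 or more, or when each list was held to the 32479 strongest peaks. All 20 BT474R lists held the region.

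DUSP2, a nuclear phosphatase best known from immune cells, had the weakest of the 7 promoter regions open in all 40 lists. Its promoter region at 0.49 kb (2:96144216-96145686) had a common percentile in BT474 of 36.9 to 51.3 in control (median 48.3), 19.9 to 42.6 with EGF (median 39.1) and 30.0 to 46.9 with HRG (median 40.2). In BT474R it was at 48.0 to 73.0 over all arms, with an all-library mean of 62.32 against 38.99 in BT474 (difference 23.33, limma adjusted p = 1.38e-09). No ligand comparison called it. The region at 28.48 kb is the promoter of the neighbouring gene ADRA2B and was not called with a ligand either.

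DUSP4, a nuclear phosphatase of ERK and JNK, had the most regions. The gene is on the minus strand of chromosome 8 (8:29333064-29350684), and its promoter region (8:29346735-29353661, midpoint at 0.49 kb) had a common percentile of 85.5 to 99.5 in BT474 and 79.7 to 99.7 in BT474R. It was called in no ligand comparison and not between the lines.

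The DUSP4 +22.79 kb region (8:29326990-29328793), past the 3′ end, had the smallest adjusted p of the 19 regions with each ligand in BT474. It was at 41.4 and 42.4 at baseline. In control it was at 31.8 and 36.4 at 1 h, 41.2 and 45.4 at 12 h, and 34.4 and 42.7 at 24 h. EGF libraries gave 51.9 and 51.7, 52.9 and 61.1, and 56.2 and 57.6, and HRG libraries 49.5 and 48.0, 54.9 and 56.7, and 55.9 and 72.5. All 12 ligand libraries lay above all 6 control and both baseline libraries, already from 1 h. The rise was 16.61 with EGF (SE 2.04, limma adjusted p = 4.13e-06) and 17.61 with HRG (adjusted p = 1.23e-06), and both calls held without any single library.

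In BT474R the DUSP4 +22.79 kb region stood at 90.4 and 93.8 at baseline, 85.7 to 90.6 in control, 87.7 to 92.0 with EGF and 86.9 to 92.4 with HRG. The arms overlapped there. Taken as BT474R minus BT474, the EGF effects differed by -15.03 points (SE 2.89, limma adjusted p = 0.0043), and the HRG effects by -16.27 (adjusted p = 0.00264). The percentile is bounded at 100, and BT474R began near that bound. On normal scores, which stretch the ends of the scale, the differences were -0.34 (adjusted p = 0.0402) and -0.38 (adjusted p = 0.0256). With the caller's p-value column in place of its signal column they were -8.69 (adjusted p = 0.363) and -11.95 (adjusted p = 0.298).

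A second DUSP4 region past the 3′ end, at 19.08 kb (8:29330967-29332237), was open in 19 BT474R lists and in 1 BT474 list. In BT474R its list percentile was 44.1 and 6.73 at baseline and, in control, 5.96 and 26.4 at 1 h, no peak and 48.7 at 12 h, and 6.64 and 41.3 at 24 h. EGF libraries gave 50.7 and 34.4, 54.9 and 61.3, and 78.4 and 82.6, and HRG libraries 39.2 and 55.1, 59.3 and 64.6, and 67.6 and 68.1. Ligand libraries of 12 and 24 h lay above all controls, whose replicates differed widely. In the fit over regions in at least 20 lists it rose by 36.15 with EGF (SE 5.95, limma adjusted p = 6.34e-05) and by 31.08 with HRG (adjusted p = 0.00126). BT474 lists without a peak entered at 0, so that the SE and p can understate the spread in BT474R. The BT474R control without a peak was the shortest list, and the effect of list length was not tested.

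Several DUSP4 regions outside the naming rule are given because their calls were seen in that same fit. DUSP4 +61.16 kb rose with both ligands in BT474 (17.84 and 17.96, limma adjusted p = 0.0126 and 0.00879) and with EGF in BT474R (22.49, adjusted p = 0.0012). DUSP4 -22.68 kb rose with HRG in BT474 (8.54, adjusted p = 0.0167) and with both ligands in BT474R (18.79 with EGF, adjusted p = 4.8e-06, and 9.9 with HRG, adjusted p = 0.0139). The intronic DUSP4 +5.25 kb region went opposite ways. It rose with EGF in BT474 by 25.05 (adjusted p = 0.000781) and with HRG by 22.63 (adjusted p = 0.00143), and with EGF in BT474R it fell by 22.9 (adjusted p = 0.00115), with a difference between the EGF effects of -47.95 (adjusted p = 0.000117). DUSP4 +5.25 kb had a peak in 4 of 6 BT474 controls and in all 6 libraries of each ligand. In BT474R it had one in all 6 controls and in 5 of 6 EGF libraries. At each of these regions, lists without a peak entered at 0, the lower bound, so that absent peaks are part of the differences. The effect of list length was not tested. Without a library, the EGF call of DUSP4 +61.16 kb in BT474 was lost in 2 of 12 fits and the HRG call of DUSP4 -22.68 kb in 3.

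DUSP8 and DUSP10 act mainly on JNK and p38. DUSP8 had its promoter at -0.13 kb (11:1572017-1572791), open in 20 BT474 and 15 BT474R lists at a median list percentile of 38.94 and 35.94. An intronic region at 12.8 kb, at an internal annotated start (11:1558900-1560043), was stronger and open in every list. Its common percentile in BT474 was 60.5 to 71.1 in control (median 65.9), 65.7 to 79.0 with EGF (median 72.8) and 66.6 to 77.3 with HRG (median 72.4), against 56.6 and 64.5 at baseline. In BT474R it was 66.2 to 81.8 in control (median 72.6), 77.7 to 84.9 with EGF (median 81.6), 69.6 to 81.2 with HRG (median 79.3), and 65.3 and 61.9 at baseline.

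The arms of DUSP8 +12.8 kb overlapped. In BT474R its controls gave 81.8 and 81.5 at 1 h, against 66.2 to 73.8 at 12 and 24 h. The region rose by 7.13 with EGF (limma adjusted p = 0.00512) and 6.84 with HRG (adjusted p = 0.00556) in BT474, and by 7.53 with EGF in BT474R (adjusted p = 0.00174), and these held without any single library. With the caller's p-value column all 3 were lost. Control also stood above baseline in BT474R by 10.06 (adjusted p = 0.021), a call lost without baseline replicate 2 (8.32, adjusted p = 0.173).

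DUSP10 had a strong promoter at -0.12 kb (1:221740832-221743596), at a common percentile of 97.2 to 98.3 in BT474 and 98.4 to 99.0 in BT474R, with no ligand call. Its intronic region at 26.43 kb (1:221715291-221716026) was at 3.8 to 21.9 in BT474 control (median 8.86), 5.59 to 23.3 with EGF (median 19.1) and 14.1 to 27.3 with HRG (median 20.9). The arms overlapped. It rose by 10.27 with HRG (limma adjusted p = 0.00266), against 1.86 by the p-value column (adjusted p = 0.706). The EGF calls (7.48 in BT474, adjusted p = 0.0312, and 6.97 in BT474R, adjusted p = 0.0318) were lost in 7 and 8 of 12 fits without a library, and the EGF call of DUSP10 +32.7 kb in BT474 (9.38, adjusted p = 0.032) in 10 of 12. A weak region at an internal annotated start, DUSP10 +29.66 kb, was open in 4 EGF, 3 HRG and 0 control lists of BT474R. No BT474 list held it. It was open in too few lists for the presence test with a ligand.

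The DUSP10 -32.58 kb region (1:221774436-221774910) was open in all 20 BT474R lists and in 2 BT474 lists, both from EGF libraries. Its summit window (plus strand of GRCh38, 1:221774438-221774638) is shown as the region of DUSP10 that most separated the lines. No AP-1 match was found in it, and no letter is in capitals. The BT474R peaks were weak, at list percentiles of 7.89 to 47.0. With only peaks of score 400 or more the difference was 20 percentage points of lists (adjusted p = 0.106).
DUSP10 -32.58 kb: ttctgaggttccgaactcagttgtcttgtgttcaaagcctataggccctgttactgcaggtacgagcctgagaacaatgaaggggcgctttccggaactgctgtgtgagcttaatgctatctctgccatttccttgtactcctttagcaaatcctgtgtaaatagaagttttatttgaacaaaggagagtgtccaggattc

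Counted over the 19 member regions open in all lists, the ligand calls were set beside those over all regions. For EGF against control over all times in BT474, 7 of the 19 were called (13.7% of all 25166 regions were), with 1 at 1 h (background 2.74%), 3 at 12 h (5.55%) and 4 at 24 h (12.0%). For HRG in BT474 the count was 6 (16.4%), with 1 at 1 h (7.53%), 3 at 12 h (6.97%) and 4 at 24 h (11.6%). The median difference of the 19 was 0.62 with EGF and 1.13 with HRG, against -0.49 and -0.73 over all regions.

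In BT474R, EGF called 7 of the 19 (21.6% of all regions), with 0 at 1 h (3.12%), 3 at 12 h (12.0%) and 5 at 24 h (13.7%). HRG called 2 (7.06%), with 0 at 1 h (0.0477%), 1 at 12 h (6.54%) and 0 at 24 h (0.759%). The median difference was 0.31 with EGF and 1.34 with HRG, against -0.59 and -0.57 over all regions. These ligand comparisons share their control libraries within a line. Beside the regions named above, EGF in BT474R called DUSP1 +5.24 kb (-4.27, limma adjusted p = 0.0394) and DUSP4 +63.68 kb (4.97, adjusted p = 0.0441), each lost in 10 of 12 fits without a library.

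The calls at single times rested on 2 libraries against 2. Of 25 such member calls, 6 held without any single library, whereas 14 of the 22 calls over all times did. Those 6 were DUSP6 -18.34 kb with HRG at 12 h in BT474 and with EGF at 12 and 24 h in BT474R, DUSP4 +22.79 kb with each ligand at 24 h in BT474, and DUSP6 -31.74 kb with HRG at 24 h in BT474. Between EGF and HRG, 0 of 19 member regions were called in BT474 (background 0.0556%) and 1 in BT474R (5.81%). Between control and baseline the counts were 0 in BT474 (0.123%) and 1 in BT474R (3.75%). The effect of EGF differed between the lines at 1 of the 19 (3.46%), and that of HRG at 1 (1.61%), in both cases DUSP4 +22.79 kb.

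**Figure D4:**
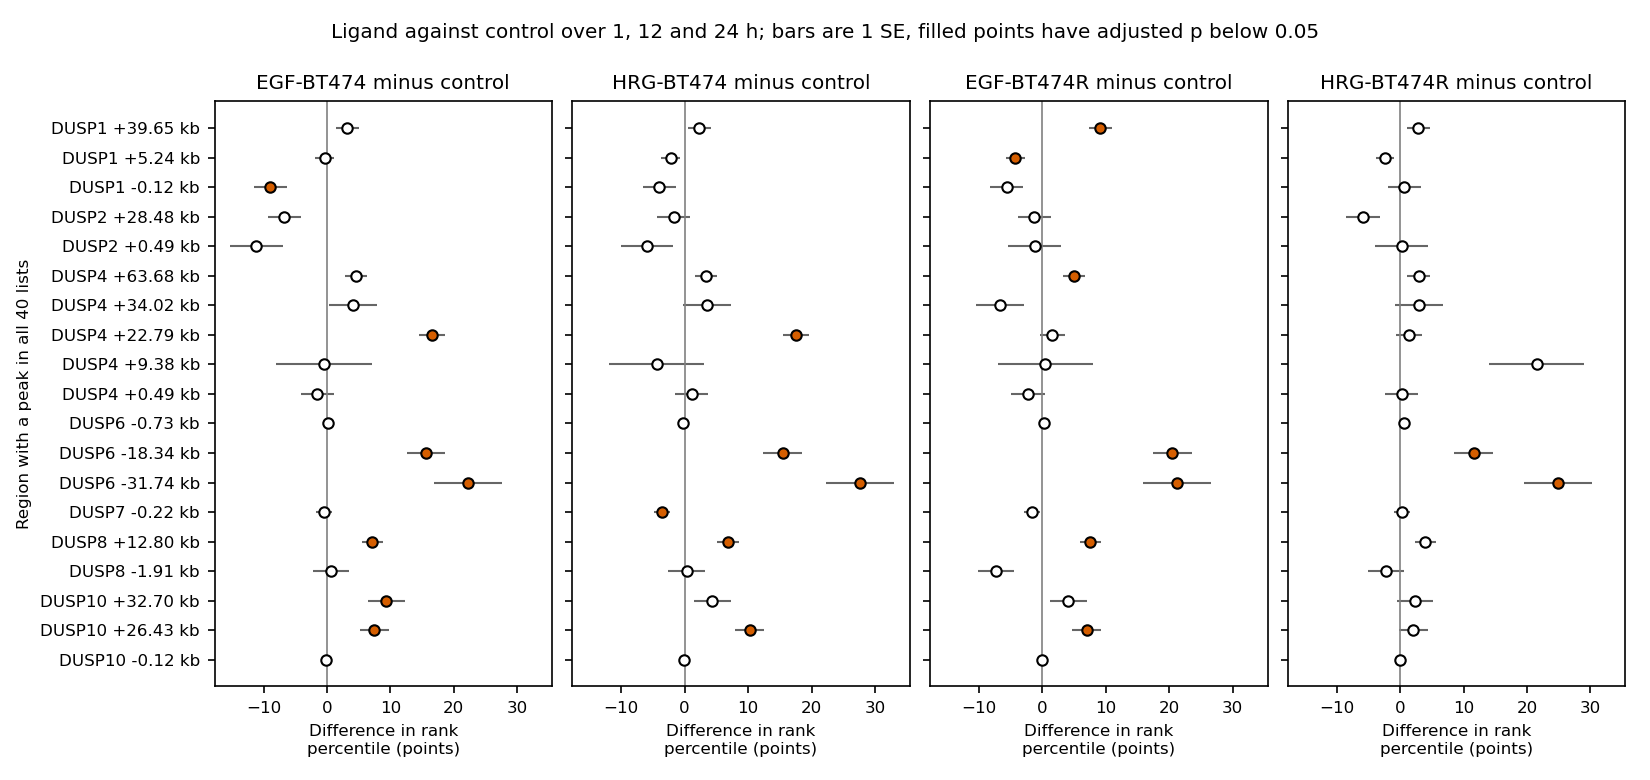
Difference in common percentile (x axis, percentile points, bars ±1 SE) between ligand and control over all times, for the 19 MKP gene regions open in all 40 lists and for each ligand and line. Promoters of DUSP6 and DUSP10 sit near 0, and both DUSP6 upstream regions lie to the right in all 4 comparisons.

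In the fit over regions in at least 20 lists, 22 further member regions could be tested. EGF called 3 of them in BT474, all higher (background 16.1%), and HRG called 4, all higher (21.7%). In BT474R, EGF called 8 higher and 2 lower (23.7%) and HRG 4 higher (9.03%). Control against baseline in BT474R called 2 of the 22, both lower (background 3.62%). EGF against HRG in BT474R called 2 higher and 1 lower (7.0%). The effect differed between the lines, as BT474R minus BT474, at 3 higher and 1 lower with each ligand (6.13% with EGF and 5.46% with HRG). Not all calls of these last comparisons are named. DUSP1 -11.58 kb rose in BT474 by 13.88 with EGF and by 15.81 with HRG (limma adjusted p = 0.00396 and 0.000828). Only 1 of 6 BT474 controls had a peak there, and the others entered at 0, the lower bound. The calls are therefore not independent of the presence counts given above, and the p can understate the spread. The remaining calls of a ligand against control were all with EGF in BT474R. DUSP10 +77.67 kb, also outside the naming rule, rose by 16.78 (adjusted p = 0.00848). The differences at DUSP6 -3.0 kb (13.1, adjusted p = 0.0352), DUSP1 -11.58 kb (9.06, adjusted p = 0.0454) and DUSP6 +2.37 kb (-5.89, adjusted p = 0.0348) were lost in 10, 10 and 6 of 12 fits without a library.

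Few member regions could be tested for presence with a ligand, since a region had to be open in 5 to 7 of the 12 libraries. These were 4 with EGF and 4 with HRG in BT474, and 6 and 2 in BT474R, too few to set against a background share. With those, 1 member region was gained with EGF in BT474 (the DUSP1 -11.58 kb region, against a background of 18.3% of 4492 regions tested) and 0 with HRG (20%). In BT474R 0 were gained with EGF (3.67%) or HRG (2.31%). Member regions lost numbered 0 in each of the 4 comparisons, where the background was 0.690% and 4.69% in BT474 with EGF and HRG, and 0.411% and 0% in BT474R. DUSP4 -22.68 kb and DUSP5 -37.53 kb, named after their values were seen, were open in 5 of 6 lists with each ligand in BT474 and 1 of 6 controls (two-sided Fisher's exact test, p = 0.0801).

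The lines differed at many MKP gene regions. Of 51 member regions tested, 17 were open more often in BT474R (background 18.9% of 46434 regions) and 4 more often in BT474 (31.1%). In the order of their p-values the first were DUSP6 +3.21 kb (20 against 0 lists, Fisher's exact test, adjusted p = 2.71e-10), DUSP6 +23.68 kb (19 against 0, adjusted p = 3.75e-09), DUSP6 -20.45 kb (18 against 0, adjusted p = 3.3e-08), DUSP10 -32.58 kb (20 against 2, adjusted p = 3.3e-08) and DUSP4 +19.08 kb (19 against 1, adjusted p = 5.54e-08). They were followed by DUSP6 +2.37 kb (20 against 4), the intronic DUSP4 +12.04 kb (12 against 0) and DUSP5 -10.12 kb (17 against 4). The 4 that were open more often in BT474 were DUSP8 +17.9 kb (13 against 20), DUSP7 +54.83 kb (4 against 13), DUSP8 +56.7 kb (14 against 20) and DUSP6 -3.0 kb (7 against 15). With only peaks of score 400 or more, 10 were open more often in BT474R and 1 in BT474, and with an equal number of top peaks in each list the BT474 count was 1.

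**Figure D5:**
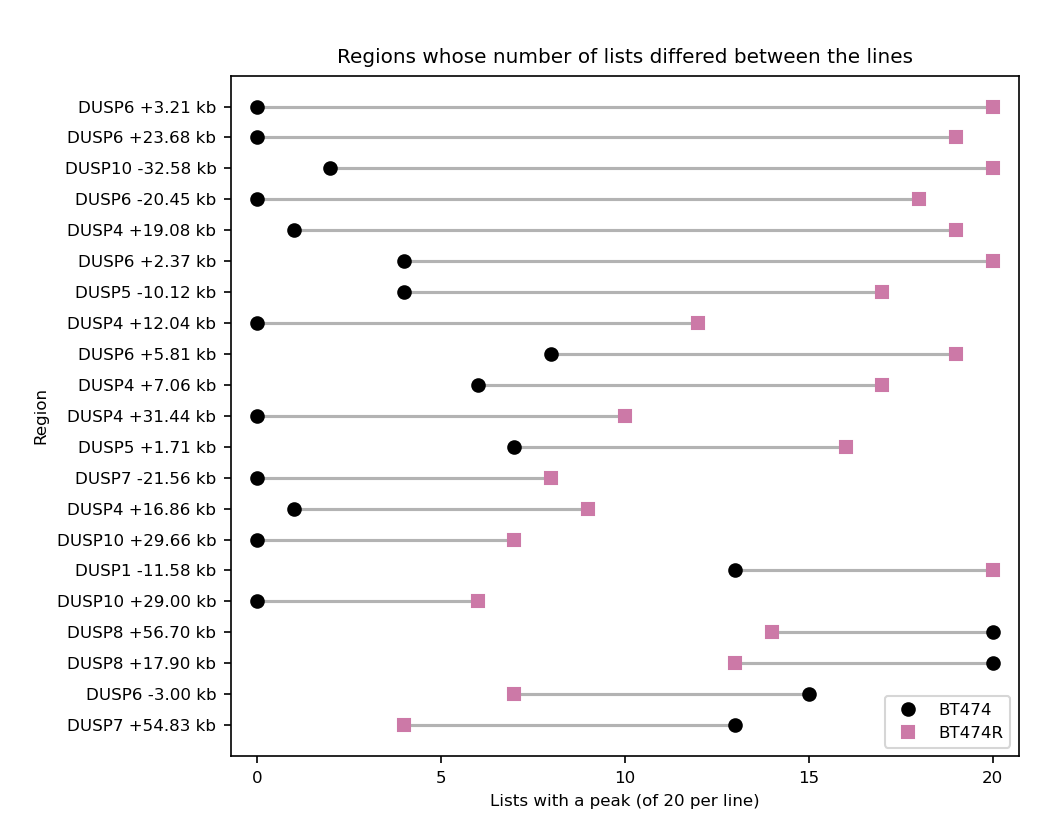
Number of the 20 lists of each line (x axis) that held each of the 21 MKP gene regions (y axis) whose presence differed between BT474R and BT474. In 17 regions the BT474R count is the higher, and 3 DUSP6 regions stand at 18 to 20 lists against 0.

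By rank, 17 of the 19 regions open in all lists differed between the lines, 15 higher in BT474R and 2 higher in BT474 (background 84.0% in either direction). The median difference of the 19 was 8.82, against -0.15 over all regions. DUSP4 +22.79 kb had means of 89.83 in BT474R and 49.23 in BT474, and the 20 libraries of each line did not overlap (difference 40.6, limma adjusted p = 5.84e-20). DUSP6 -18.34 kb had 66.97 against 29.88 (adjusted p = 5.48e-16), and DUSP10 +26.43 kb 44.04 against 15.59 (adjusted p = 4.84e-16). The 2 that were lower in BT474R were the DUSP1 promoter (-8.64) and DUSP8 -1.91 kb (-14.06). Copy number of the 8 genes in the lines was not measured here, and its part in these differences was not tested.

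Promoters of the other genes of the MAP kinase pathway were counted in the same fit. Over other DUSP genes, 8 promoter regions were open in all lists, and EGF in BT474 called 1 of them, lower, while the other 3 ligand comparisons called 0 (over all regions 13.7% and 16.4% were called with EGF and HRG in BT474, and 21.6% and 7.06% in BT474R). Over MAP kinases and their upstream kinases, 25 regions gave 1 higher and 2 lower with EGF and 1 and 1 with HRG in BT474, and 1 and 1 with EGF and 1 and 0 with HRG in BT474R. The region called in all 4 comparisons was the promoter of MAP2K3, a kinase upstream of p38 (9.42, 11.1, 19.12 and 10.8 with EGF and HRG in BT474 and then in BT474R, limma adjusted p at most 0.00146).

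Over feedback regulators and early genes, 28 regions gave 4 higher and 3 lower with EGF and 4 and 2 with HRG in BT474. In BT474R they gave 6 and 6 with EGF and 3 and 2 with HRG. The share of the 28 called was 25% (13.7% of all regions) and 21.4% (16.4%) with EGF and HRG in BT474, and 42.9% (21.6%) and 17.9% (7.06%) in BT474R. Regions of 1 gene are counted apart, and in BT474 the 4 higher regions were 3 of SPRED2 and 1 of ETV4 with each ligand. SPRED2, an inhibitor of RAS to RAF signalling, had a region (2:65377562-65378203) that rose by 16.66, 17.19, 23.72 and 14.61 in the same order of comparisons. The region of ETV4, an ETS factor, rose by 17.79, 18.98, 19.76 and 16.52.

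Of the AP-1 genes, FOSB, JUNB and JUN had called promoters, which were lower in each comparison that called them. No promoter region of FOS, FOSL1, FOSL2 or JUND was called with a ligand. The FOSB differences were -9.79 with EGF and -8.52 with HRG in BT474, and -5.6 and -5.02 in BT474R. The JUNB differences were -6.4 and -4.94 in BT474, and -3.38 and -3.91 in BT474R. JUN was called with EGF in BT474R (-3.73). The early genes IER3 and IER2 were called in BT474R only. IER3 rose by 2.66 with EGF and by 1.67 with HRG (limma adjusted p = 9.54e-06 and 0.00649). IER2 fell with EGF at its called regions (-9.7 and -7.74, adjusted p = 6.8e-05 and 0.00361).

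The motifs searched, on both strands within 100 bases of the summit, were no more than a description of the letters there. AP-1 (TGANTCA) was in 11 of the 70 regions (15.7%), against 16.3% of all regions. SP1 (GGGGCGGGG) was in 6 (8.57% against 4.76%), CRE (TGACGTCA) in 2, both at DUSP8 (2.86% against 0.656%), the CArG box in 1 (1.43% against 0.94%) and ETS (CCGGAAGT) in 1 (1.43% against 1.34%). EGR1 (GCGTGGGCG) was in 0, against 0.246% of all regions.

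Across the 20 group means, the promoters whose common percentile followed that of the DUSP6 promoter most closely, of 11406 promoter regions, were those of PARN (Pearson r = 0.668), GPRC5C (0.65) and the promoter shared by HIRIP3 and INO80E (0.644). The DUSP6 means span only 97.34 to 99.83, and libraries of a group share a line and a time.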

How the data were processed

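ATAC-seq was performed on 40 libraries of BT474 and BT474R cells, 2 for each of 20 combinations of line, treatment and time. Per the labels and the study's methods, the authors trimmed the reads with Trim Galore (0.6.6), checked them with FastQC, aligned them with BBMap to GRCh38.p13 and called peaks in each library with Genrich, leaving out mitochondrial reads and blacklisted regions. Whether Genrich's ATAC mode, which centres intervals on the cut sites, was used is not given in the sources used here. The deposited lists give for each peak a score (lowest 200), a signal value (column 7, the summed significance over the peak), and a −log10 p-value (column 8). They hold no read counts, so depth and its precision are unknown, and the study's own read-based comparison was not repeated.

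Peaks were merged over lists and ranked by column 7, taking the strongest peak of a region in each list. Presence was compared by two-sided Fisher's exact tests with the Benjamini-Hochberg adjustment. A ligand call needed p below 0.05 with 6 libraries against 6, over regions open in 5 to 7 of the 12 libraries, and a call between lines an adjusted p below 0.05 with 20 against 20. Rank percentiles were compared with limma 3.58.1 (R 4.3.3) with all 40 libraries in 1 fit and an adjusted p below 0.05 over all regions. Tables were handled with pandas 2.3.3 and numpy 2.4.6 and exact tests run with scipy 1.17.1 under Python 3.11.15, plots were drawn with matplotlib 3.10.9, and the test code was tested on simulated data. Motifs were searched in reference sequence of GRCh38, and RefSeq promoter sequences were found for 6 of the 8 genes. Sequences are printed for a few regions, and 1 further sequence is not reported here.

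The members, gene lists and markers were chosen with earlier results of these data known. Regions named were promoters, the regions called in a comparison (at most 8 per comparison, by p), and the strongest other region of each gene except DUSP7. Some weak promoter regions of DUSP5, DUSP6 and DUSP8, open in few lists, are not named. From the gene lists, called promoters were named, at most 5 per ligand comparison, and for DUSP6 the 3 promoters most like its own by Pearson correlation. For DUSP5, whose promoter was not open in all lists, none were computed. Alternatives covered the score (400 or more), column 8, list percentile, normal scores, summed signal, 50% cover, an equal number of top peaks, regions in at least 4 or at least 20 lists, a replicate block, time as strata, and each library left out.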

Additional observations from a re-analysis of the deposited data

Results flagged for a closer look

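The effect of each ligand at DUSP4 +22.79 kb differed between the lines in the limma test of that difference. Taken as BT474R minus BT474, the EGF effects differed by -15.03 percentile points (adjusted p = 0.0043) and the HRG effects by -16.27 (adjusted p = 0.00264). Both were past the threshold in every fit without a library and missed it with column 8. Groups of 2 libraries were too small for a test of single outlying samples.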

How the results depend on the processing

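A percentile says where a peak stands among others, short lists lose weak peaks, and depth is unknown. With peaks of score 400 or more, presence calls with EGF in BT474 went from 1 to 0, line calls from 17 to 10 (BT474R) and 4 to 1 (BT474), rank calls with EGF from 7 to 4 in BT474 and 7 to 4 in BT474R, and differences in EGF effect from 1 to 2. With equal numbers of top peaks, the EGF gain in BT474 went to 0 and the BT474 line calls to 1. With 50% cover, EGF and HRG each gained 1 in BT474R. Over regions in at least 20 lists, where more regions are tested, rank calls were 10 with HRG in BT474, 16 with EGF and 6 with HRG in BT474R, 3 for control against baseline and 3 for EGF against HRG in BT474R, 35 between lines, and 5 for each difference in effect. By list percentile they were 5 with HRG, 0 for control against baseline and 2 for EGF against HRG, all in BT474R. By normal scores EGF against HRG in BT474R gave 0. With column 8 it gave 0, as did control against baseline in BT474R and both differences in effect, and the EGF difference of DUSP8 +12.8 kb at 24 h in BT474 reversed (-0.5, adjusted p = 0.972). Summed signal gave 2 for each difference in effect. In each case the cause was not tested.

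Without each library in turn, member calls ranged as follows. Presence gained gave 1 to 3 (EGF, BT474), 0 to 3 (HRG, BT474), 0 to 2 (EGF, BT474R) and 0 (HRG, BT474R), presence lost gave 0 in all 4 comparisons, and the lines gave 17 to 20 and 4 to 5. Rank over all times gave 4 to 9 and 5 to 6 with EGF and HRG in BT474, and 4 to 8 and 1 to 3 in BT474R. At 1, 12 and 24 h the ranges were 0 to 1, 0 to 4 and 1 to 4 with EGF and 0 to 1, 1 to 2 and 2 to 5 with HRG in BT474. In BT474R they were 0, 2 to 4 and 1 to 3 with EGF, and 0, 0 to 2 and 0 to 1 with HRG. Control against baseline and EGF against HRG gave 0 in BT474 and 1 to 4 and 0 to 2 in BT474R. The lines gave 17, and each difference in effect 1. The same fits over regions in at least 20 lists were added after seeing the data.

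Replicate numbers did not pair the libraries throughout, though some groups deviated together. Same-numbered libraries deviated together with a median correlation of 0.012 in BT474 (-0.237 to 0.617) and -0.002 in BT474R (-0.415 to 0.483), over 45 pairs of groups each. The correlation was above 0.1 in 5 pairs in BT474 and in 11 in BT474R. With the replicate block presence gave the same 17, 4 and 1, and 67 of 68 rank calls were kept. The HRG call of the DUSP7 promoter in BT474 was lost (-3.56, adjusted p = 0.0528).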
